A study of Homo sapiens with 24 samples.

Results

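The enzymes that make and trim the deoxynucleotides used for DNA were followed through PPC1 prostate cancer cells before and after they became polyploid giant cancer cells (PGCC). The 9 genes were taken by symbol from a count table of 48162 genes: RRM1, RRM2, TK1, TYMS, DUT, DCK, DTYMK, SAMHD1 and DCTD. Each symbol matched 1 row, and all 9 passed the filter on low counts in every comparison. Parental cells were unirradiated PPC1 cells harvested on day 5 after plating. PGCC were PPC1 cells that received 8 Gy on day 2 and were trypsinized on day 5 and captured on a 20 micron strainer, a step the parental cells did not undergo. Both populations were also harvested after 5 h with 5 µM LCL521, a pro-drug that inhibits acid ceramidase (ASAH1), so that there were 4 conditions. The study's methods number the day of LCL521 exposure differently from the sample labels. The whole experiment was repeated 6 times, with the 4 conditions harvested in parallel in each run, which gave 6 libraries per condition and 24 in all. The irradiation and the size selection were always applied together, so their contributions cannot be told apart.

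Ribonucleotide reductase turns ribonucleotides into deoxynucleotides and is built from a large subunit, RRM1, and a small subunit, either RRM2 or the p53-inducible RRM2B. Thymidine nucleotides come either from new synthesis, through DUT, DCTD and TYMS, or from salvage of thymidine by TK1, and both routes meet at the kinase DTYMK. DCK salvages deoxycytidine and purine deoxynucleosides, and SAMHD1 breaks deoxynucleotides down. RRM2, TK1 and TYMS are known as genes of S phase and are low in resting cells, which is why the group is often read as a sign of DNA synthesis in cancer cells.

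The libraries held between 14835246 and 19906601 counts on genes, and the lowest count of any of the 9 genes in any library was 117, for TK1 in a library of parental cells with LCL521. A floor of 3 counts lay between 0.150 and 0.208 CPM, the unit in which counts are scaled for library size, and it covers counting error only. In a principal component analysis the first component (55.9% of the variance) separated PGCC from parental libraries, and the second (16.5%) set runs 4 and 5 apart from the other runs in every condition. Values without those runs are therefore given for the enzymes. Of 5 epithelial markers, KRT8, KRT18, KRT19 and CDH1 were above 3 counts in every library of each condition. EPCAM was not, with means between 0.204 CPM in parental cells and 0.453 CPM in PGCC with LCL521. By contrast, 3 of 5 prostate luminal markers (KLK3, KLK2 and FOLH1) were at 0 in all libraries. The 5 blood markers summed to between 0.464 and 2.97 CPM in parental cells and between 2.84 and 4.43 CPM in PGCC, with HBB at 0 in all libraries. Among them PTPRC, a leukocyte surface phosphatase, was higher in PGCC (log2 fold change 1.39, adjusted p = 0.0164, edgeR). The 4 fibroblast markers summed to between 49.8 and 133 CPM in parental cells and between 79.5 and 206 CPM in PGCC. Most of this sum was COL1A2, with means of 63.9 CPM in parental cells and 113 CPM in PGCC. COL1A1 went the other way, with means of 8.37 and 7.06 CPM, and DCN and LUM had means of 0.0938 and 0.418 CPM in PGCC. The part of the blood and fibroblast markers in the results was not tested.

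Between parental cells and PGCC, 7 of the 9 enzymes rose and none fell at an adjusted p under 0.05 (quasi-likelihood test of edgeR, Benjamini-Hochberg adjusted over 13812 genes). Of all genes tested, 47.4% passed in either direction and 23.1% were higher in PGCC. TK1 and RRM2 changed most, by 7.64-fold and 6.69-fold, and RRM1 and TYMS followed at 2.76-fold and 2.69-fold. DTYMK, DUT and SAMHD1 rose by 1.58-fold, 1.40-fold and 1.30-fold. DCK and DCTD did not pass. The median log2 fold change was 0.66 over the 9 enzymes and -0.03 over all genes tested. In bulk RNA, a larger share of cells that express a gene and more of its RNA per cell cannot be told apart.

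Ribonucleotide reductase is described first. RRM2 (ENSG00000171848, hg19 chromosome 2, 10262455 to 10271545, plus strand) supplies the radical that drives the reaction and is the subunit whose amount follows the cell cycle. Its level in parental cells was lowest at 22.0 CPM, with a median of 62.8 and a highest value of 94.4 CPM. In PGCC the lowest value was 291 CPM, the median 447 and the highest 480 CPM. The groups did not overlap, and the lowest PGCC library was above the highest parental one by a wide gap. The log2 fold change of RRM2 was 2.74 (standard error, SE, 0.29, edgeR adjusted p = 4.96e-06), and its rise was the 206th largest of 13812. Run by run, the fold in RRM2 lay between 4.96 in run 3 and 13.2 in run 4. Runs 4 and 5 held the lowest PGCC levels of RRM2 and the lowest parental level came from run 4, and without both runs the log2 fold change was 2.58 (adjusted p = 3.66e-08, edgeR).

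RRM1 (ENSG00000167325, chromosome 11, 4115937 to 4160106, plus strand), which carries the catalytic and regulatory sites, rose less than RRM2. Parental libraries held between 28.6 and 51.3 CPM of RRM1, with a median of 41.0, and PGCC libraries between 107 and 126 CPM, with a median of 114. The 2 ranges were far apart. For RRM1 the log2 fold change was 1.47 (SE 0.12, edgeR adjusted p = 5.39e-07), and 1.33 without runs 4 and 5. RRM2B, the alternative small subunit and no member of the 9, went the other way, from 52.9 ± 9.51 to 39.7 ± 2.07 CPM (SD, n = 6 each). RRM2B changed by -0.41 on the log2 scale (edgeR adjusted p = 0.00879), and it was lower in PGCC in 6 of 6 runs.

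**Figure D1:**
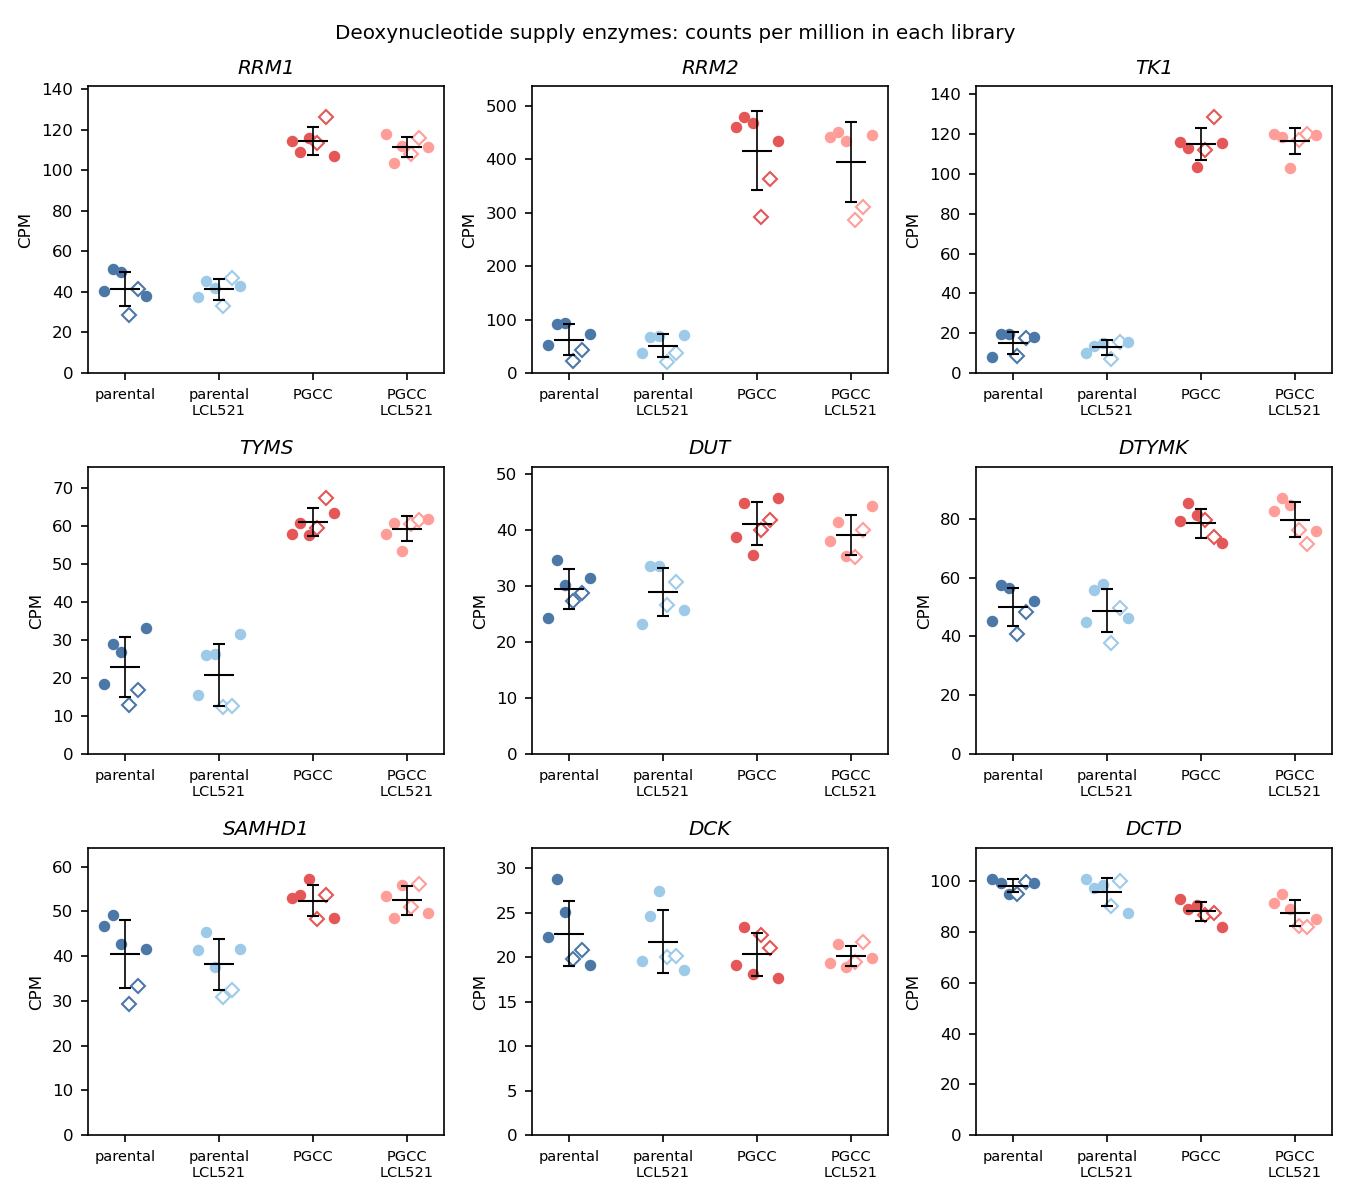
CPM of each enzyme (vertical axes, from 0) in the 6 libraries of each of the 4 conditions, with the mean (bar) and SD; open diamonds are runs 4 and 5. RRM1, RRM2, TK1, TYMS, DUT and DTYMK in PGCC lie above every parental library, SAMHD1 and DCK overlap between PGCC and parental cells, and the ranges with and without LCL521 overlap for every enzyme in both populations.

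Thymidine supply was next. TK1 (ENSG00000167900, chromosome 17, 76170160 to 76183314, minus strand), the cytosolic thymidine kinase, had its lowest parental value at 7.90 CPM, a median of 17.8 and a highest value of 19.4 CPM. In PGCC these values were 104, 114 and 129 CPM. No library of one population came near the other. TK1 had a log2 fold change of 2.93 (SE 0.22, edgeR adjusted p = 2.59e-07), the 175th largest rise of 13812. Its fold was lowest in run 3, at 5.35, and highest in run 1, at 14.7, and without runs 4 and 5 its log2 fold change was 2.82. The spread between folds came from the parental side, where TK1 varied with a coefficient of variation of 36.0% against 7.07% in PGCC.

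TYMS (ENSG00000176890, chromosome 18, 657604 to 673578, plus strand), which methylates dUMP to dTMP, ranged from 13 to 33.0 CPM in parental cells, with a median of 22.7. It ranged from 57.6 to 67.4 CPM in PGCC, with a median of 60.1. The groups did not overlap. TYMS had a log2 fold change of 1.43 (SE 0.19, edgeR adjusted p = 3.49e-05) and 1.18 without runs 4 and 5. In parental cells runs 4 and 5 held its lowest values, 13 and 16.8 CPM, whereas in PGCC run 5 held the highest, 67.4 CPM. TYMS overlaps ENOSF1 on the opposite strand over 1036 bases, and the strand setting of the counting is not given in the sources used here, so reads from this overlap cannot be assigned. ENOSF1 itself was lower in PGCC in 6 of 6 runs, with 80.9 ± 16.0 CPM in the parental and 55.4 ± 6.64 CPM in the PGCC libraries (SD, n = 6 each).

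DTYMK (ENSG00000168393, chromosome 2, 242615157 to 242626406, minus strand), the kinase that takes dTMP to dTDP, moved from a range of 40.6 to 57.4 CPM with a median of 49.99 to a range of 71.6 to 85.3 CPM with a median of 79.3. All PGCC libraries were above all parental ones. DTYMK had a log2 fold change of 0.66 (SE 0.09, edgeR adjusted p = 5.75e-05), with a fold between 1.38 and 1.95 in the single runs, and 0.61 without runs 4 and 5. DUT (ENSG00000128951, chromosome 15, 48623208 to 48635570, plus strand) removes dUTP and so provides dUMP for TYMS while keeping uracil out of DNA. It ranged from 24.3 to 34.6 CPM in parental cells, with a median of 29.4, and from 35.6 to 45.7 CPM in PGCC, with a median of 40.9. These ranges were adjacent but did not overlap. DUT had a log2 fold change of 0.49 (SE 0.10, edgeR adjusted p = 0.00125), and 0.47 without runs 4 and 5. The 8 pseudogenes of DUT in the table reached at most 6 counts in any library, and the 3 of RRM2 at most 3.

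DCTD (ENSG00000129187, chromosome 4, 183811213 to 183839089, minus strand), which deaminates dCMP to dUMP, was the steadiest of the 9. It lay between 95.1 and 101 CPM in parental cells, with a median of 99.3, and between 82.1 and 93.0 CPM in PGCC, with a median of 88.2. The PGCC libraries were all below the parental ones, by a small margin. The log2 difference of DCTD was -0.15 (standard error 0.06, 95% interval -0.28 to -0.02) with an adjusted p of 0.0520 in edgeR's test, and it was lower in 6 of 6 runs. With the run as a block, which called 56.2% of all genes, the adjusted p was 0.0482 (edgeR), so the call turns on that choice, and scaling by library totals gave -0.06 (adjusted p = 0.450, edgeR). Without runs 4 and 5 the log2 difference of DCTD was -0.14 (adjusted p = 0.123, edgeR).

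Salvage of deoxycytidine and the breakdown of deoxynucleotides complete the group. DCK (ENSG00000156136, chromosome 4, 71858255 to 71896631, plus strand) lay between 19.2 and 28.8 CPM in parental cells, with a median of 21.6, and between 17.7 and 23.4 CPM in PGCC, with a median of 20.1. The 2 ranges overlapped between 19.2 and 23.4 CPM. The log2 difference of DCK was -0.15 (95% interval -0.40 to 0.10, adjusted p = 0.306, edgeR). Without runs 4 and 5 it was -0.27 (adjusted p = 0.110, edgeR). With the run as a block as well DCK was called lower, at -0.26 (adjusted p = 0.0248, edgeR), as were 4368 of 13809 genes (8881 called in either direction). The difference was of opposite sign in the single runs, with a fold between 0.722 in run 3 and 1.14 in run 4. DCK shares 29912 bases of annotated span with MOB1B on the same strand, and reads from shared bases could not be assigned here.

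SAMHD1 (ENSG00000101347, chromosome 20, 35518632 to 35580246, minus strand), the triphosphohydrolase that lowers deoxynucleotide pools, ranged from 29.2 to 49.1 CPM in parental cells, with a median of 42.2. It ranged from 48.3 to 57.3 CPM in PGCC, with a median of 53.3. The groups overlapped only at the edge, and SAMHD1 was higher in PGCC in 6 of 6 runs. Its change on the log2 scale was 0.38 (SE 0.12, edgeR adjusted p = 0.0160). Run 4 and run 5 held its lowest parental values, 29.2 and 33.4 CPM, and without both the log2 fold change was 0.26 (adjusted p = 0.0251, edgeR). Leaving out replicate 3 or replicate 5 alone took the adjusted p to 0.0510 and 0.0534 (edgeR), at log2 fold changes of 0.37 and 0.33.

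In this comparison the CPM ranges of parental cells and PGCC did not overlap for 7 of the 9 enzymes, 6 of them higher and DCTD lower in PGCC, against 26.8% of all genes tested (13.9% higher and 12.9% lower). SAMHD1 and DCK were the exceptions. A direction shared by all 6 runs was seen for 8 of the 9, all but DCK, and for 50.5% of all genes tested.

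The promoters were read because RRM2, TK1, RRM1 and TYMS rose most among the 9, although by different amounts. Windows from 250 bases before to 50 bases after each annotated start (RefSeq, GRCh38.p14) matched all 9 symbols and gave 15 windows. The letters CCAAT (either strand) were in the windows of 5 of the 9 enzymes, RRM1, RRM2, TK1, DTYMK and SAMHD1, against 39.7% of all 27305 genes, and in 6 of the 15 windows, against 34.6% of all 35116 windows. RRM2 held 3 of them in a single window, and 3.26% of all windows held at least 3. An E2F-type 8-mer (TTTCCCGC, TTTCGCGC, TTTGCCGC or TTTGGCGC, either strand) was in the windows of TYMS, DUT and DCK, or 3 of 9 enzymes, and in those of 3.99% of all genes. By window this was 3 of 15, against 3.31% of all windows. The letters TTTGAA, the core of the cell cycle homology region, were in the windows of RRM1 and DUT, or 2 of 9 enzymes, and in those of 18.2% of all genes. By window this was 2 of 15, against 15.2% of all windows. DCTD held none of these letters in its windows. A match describes the letters and is no evidence of binding, and DCK, which did not pass the test, carries an E2F-type 8-mer as TYMS does. The CCAAT sites in the window that holds 3 of them in RRM2, the CCAAT sites of TK1 and RRM1, the E2F-type 8-mer of TYMS and, for comparison, those of DUT and DCK are printed 5′ to 3′ on the gene's strand with the matched letters in capitals.
RRM2 chr2:10122606-10122630: caaggcgcagCCAATgggaagggtc
RRM2 chr2:10122636-10122660: catggcacagCCAATgggaagggcc
RRM2 chr2:10122663-10122687: ggcaccaaagCCAATgggaagggcc
TK1 chr17:78187115-78187139: ccgggcgctgATTGGccccatggcg
TK1 chr17:78187084-78187108: ccggctcgtgATTGGccagcacgcc
RRM1 chr11:4094647-4094671: atgtccatatCCAATggggcccatg
TYMS chr18:657606-657629: ggacggccGCGGGAAAaggcgcgc
DUT chr15:48332147-48332170: cggggctgGCGGGAAAtttcggtt
DUT chr15:48332162-48332185: atttcggtTTTGGCGCgctccctg
DCK chr4:70993662-70993685: gcctccgcGCGCCAAAgtcaaacc
The CCAAT letters shown for RRM2 began 123, 93 and 66 bases before the annotated start in their window, and another match, not shown, began 249 bases before a different annotated start of RRM2. Those of TK1, in reverse orientation, began 77 and 46 bases before its start, whereas the 8-mer of DCK lay after the start, beginning at base 22. The CCAAT letters of RRM1 began 28 bases before the start, and the 8-mer of TYMS 39 bases before it.

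The same population contrast was repeated in the libraries exposed to LCL521, which share no library with the first comparison but come from the same 6 runs. Again 7 of the 9 enzymes rose and none fell, where 48.9% of 13818 genes passed in either direction and 25.0% were higher. TK1 went from 12.8 ± 3.64 to 116 ± 6.66 CPM (SD, n = 6 each), or by 3.20 on the log2 scale (adjusted p = 9.82e-09, edgeR). RRM2 went from 51.1 ± 21.4 to 395 ± 75.4 CPM (SD, n = 6 each), or by 2.98 on the log2 scale (adjusted p = 9.54e-07, edgeR). For both, every PGCC library was above every parental library.

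TYMS rose by 1.54 and RRM1 by 1.46 on the log2 scale under LCL521, DTYMK by 0.74, SAMHD1 by 0.48 and DUT by 0.46, with adjusted p-values between 2.47e-08 for RRM1 and 0.00339 for DUT (edgeR). DCTD and DCK had log2 differences of -0.10 (adjusted p = 0.213) and -0.08 (adjusted p = 0.546, both edgeR). SAMHD1 did not overlap here, from 30.8 to 45.3 CPM in parental cells with LCL521 and from 48.5 to 56.0 CPM in PGCC with LCL521, whereas DCTD did, from 87.7 to 101 CPM against 82.1 to 95.1 CPM. In all, 7 of the 9 did not overlap, all of them higher in PGCC, against 28.1% of all genes tested (14.4% higher), and DCTD and DCK overlapped. Without runs 4 and 5 the log2 fold changes were 3.11 for TK1, 2.87 for RRM2, 1.26 for TYMS and 0.36 for SAMHD1, each past the threshold.

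**Figure D2:**
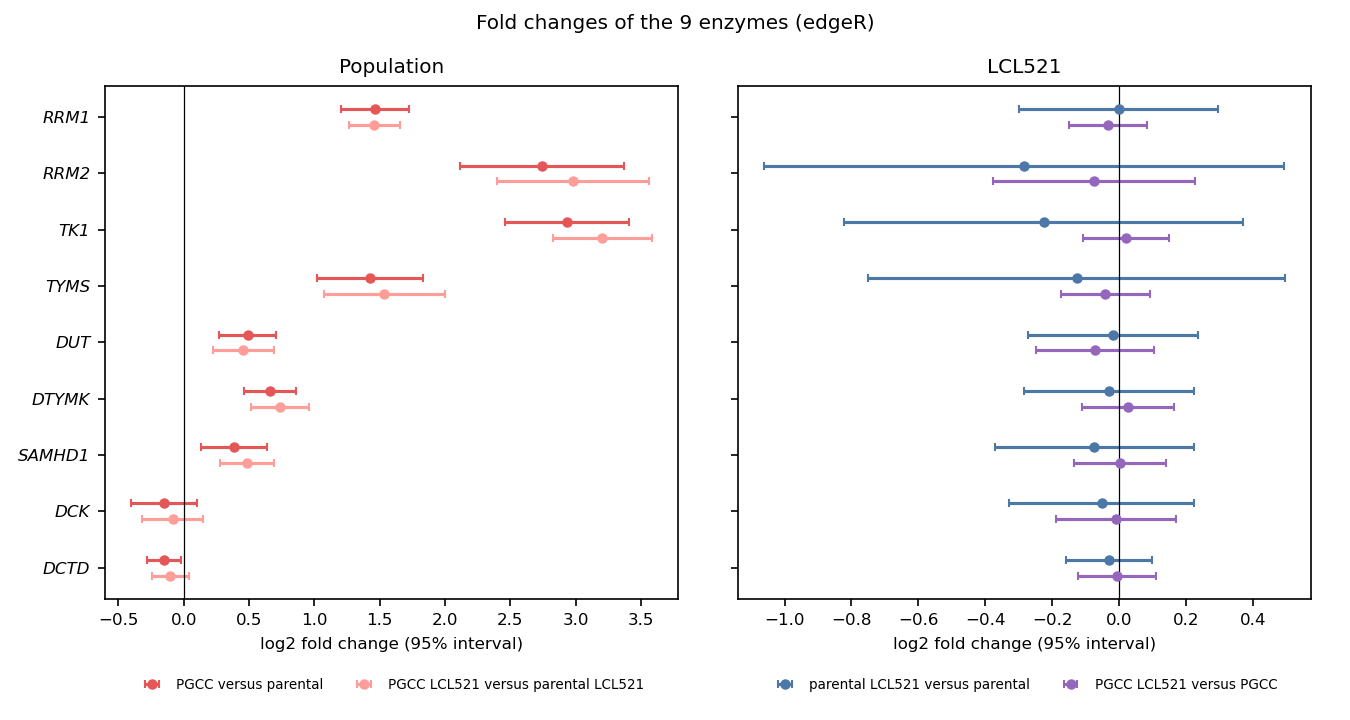
Log2 fold changes of the 9 enzymes from edgeR (points) with 95% intervals (bars), for PGCC against parental cells without and with LCL521 (left) and for LCL521 within each population (right, on its own scale). The population changes run from -0.15 to 2.93 and from -0.10 to 3.20, and every interval for LCL521 crosses 0.

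The effect of LCL521 within each population was far smaller. None of the 9 enzymes passed in parental cells, where the log2 differences lay between -0.28 for RRM2 and -0.0010 for RRM1. None passed in PGCC, where they lay between -0.07 for RRM2 and 0.03 for DTYMK. None had an unadjusted p under 0.05 in edgeR's test without the block in either population, and DESeq2 called none. Over all genes, edgeR called 0 of 13277 (0.0%; 71 at an unadjusted p under 0.05) in parental cells and 1 of 14151 (0.00707%; 218 unadjusted) in PGCC, and DESeq2 called 0 and 6. With the run as a block the counts were 115 (0.866%) and 234 (1.65%), none of them among the 9 enzymes. In that blocked edgeR test the unadjusted p was under 0.05 for RRM2 (0.000502), TYMS (0.0376) and TK1 (0.0416) in parental cells. In PGCC it was so for RRM2 only (0.0339). These enzymes were lower with LCL521 in each case. Over all genes, the same blocked test gave an unadjusted p under 0.05 for 1648 of 13277 in parental cells and 2030 of 14151 in PGCC.

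RRM2 was the enzyme with the largest difference under LCL521 in parental cells. Its level was lowest at 22.0, with a median of 62.8 and a highest value of 94.4 CPM without LCL521, and 21.1, 53.3 and 71.5 CPM with it. The ranges overlapped, with 3 of the 6 libraries without LCL521 above the highest one with it, and within each run the library with LCL521 was the lower in 6 of 6. The 95% interval of the log2 difference ran from -1.06 to 0.49. With the run as a block the difference was -0.27 (95% interval -0.40 to -0.14, adjusted p = 0.0533, edgeR), which also misses the threshold. TYMS was lower in 6 of 6 runs of parental cells as well, at a log2 difference of -0.13, and with the block its adjusted p was 0.366 (edgeR). How many of all genes shared a direction in all 6 runs was not counted for LCL521 in parental cells or PGCC. Counts of runs with LCL521 therefore have no background here.

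In PGCC the intervals were narrower. TK1 had a log2 difference of 0.02 (95% interval -0.11 to 0.15), RRM1 of -0.03 (-0.15 to 0.08) and TYMS of -0.04 (-0.17 to 0.09). RRM2, with -0.07, had the widest interval, from -0.38 to 0.23. DUT was lower with LCL521 in 6 of 6 runs of PGCC, at a log2 difference of -0.07 (95% interval -0.25 to 0.10), and its adjusted p with the block was 0.495 (edgeR). Whether LCL521 acted differently in the 2 populations was tested with an interaction term over the 24 libraries. No enzyme passed (0 of 9), as no gene did among 14555 tested (0.0%, with 60 at an unadjusted p under 0.05 in edgeR and 0 called by DESeq2). The interaction was largest for TK1 and RRM2, at 0.25 (95% interval -0.32 to 0.82) and 0.22 (-0.61 to 1.05) on the log2 scale.

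Levels of different genes were compared per kilobase of gene length, as RPKM, in which counts are scaled for gene length and library size. In parental cells DCTD was the most abundant, at 49.8 ± 1.27 RPKM (SD, n = 6), followed by DTYMK at 40.5 ± 5.29 RPKM, and neither range overlapped the next in order. RRM2, TYMS, DUT and RRM1 formed a middle group between 13.1 and 17.1 RPKM whose neighbours overlapped. TK1, SAMHD1 and DCK were lowest, between 8.35 and 8.98 RPKM, and overlapped too. The order was different in PGCC, where RRM2 came first at 113 ± 20.1 RPKM (SD, n = 6) and did not overlap TK1, which was second at 68.3 ± 4.83 RPKM. TK1 and DTYMK (63.6 ± 4.04 RPKM) overlapped. DCTD fell to the fourth place at 44.7 ± 1.90 RPKM, TYMS and RRM1 overlapped at 36.7 and 36.1 RPKM, and DUT, SAMHD1 and DCK followed at 19.1, 10.95 and 7.48 RPKM without overlap between neighbours. By these means TK1 was in the seventh place in parental cells and in the second in PGCC. DCK had the lowest mean in both, although in parental cells it was above SAMHD1 in 4 of 6 libraries. With LCL521 the order of the means was the same in PGCC. In parental cells it changed among neighbours that overlapped, with TYMS in the sixth place after DUT and RRM1, and TK1 in the last at 7.64 RPKM after DCK and SAMHD1.

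The RPKM of the 9 enzymes summed to 174 ± 25.7 (SD, n = 6) in parental cells and 400.4 ± 20.8 (SD, n = 6) in PGCC. RRM2 made up 9.43% ± 3.30 of this sum in parental cells, from 4.43% to 13.2% in single libraries, and 28.2% ± 3.88 in PGCC, from 21.8% to 31.3%. The ranges of the share did not overlap.

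**Figure D3:**
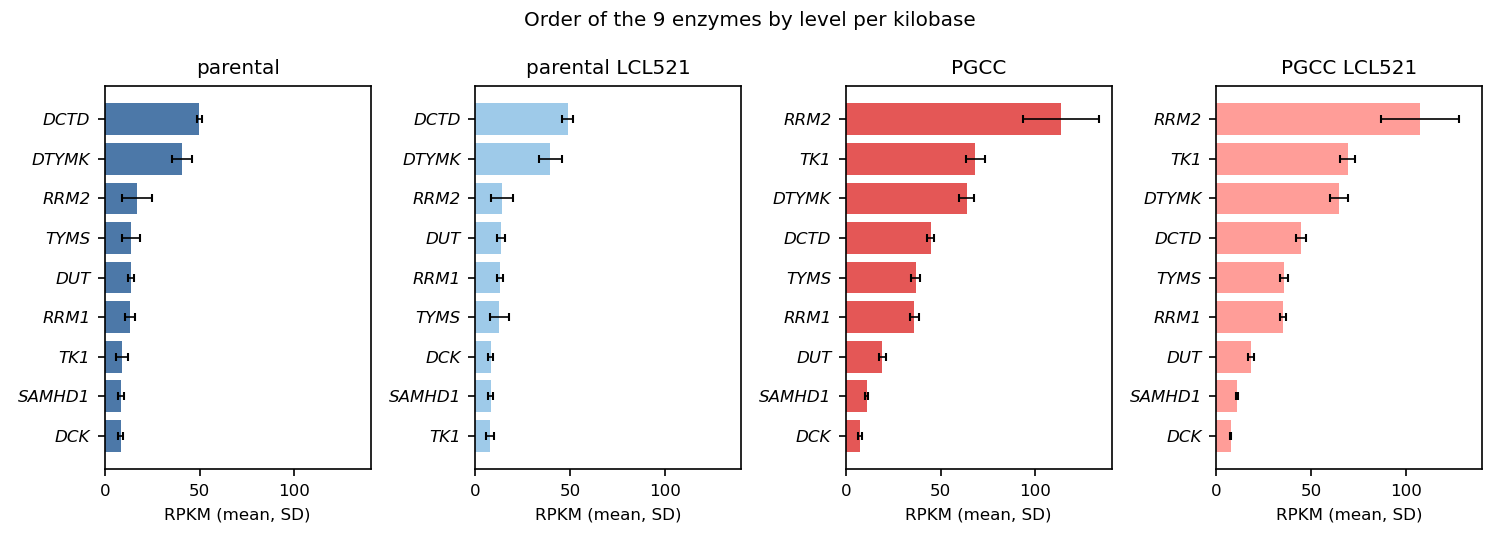
RPKM (mean and SD of 6 libraries) of the 9 enzymes in each condition, ordered from highest to lowest. DCTD and DTYMK lead in parental cells, and RRM2 (113 RPKM) and TK1 (68.3 RPKM) lead in PGCC.

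Ratios between partner genes within a library do not depend on how libraries are scaled, so 5 ratios were formed per kilobase and tested in both population contrasts with a two-sided exact permutation test of 6 against 6 libraries. The p-values were adjusted over a family of 12 tests, of which these 10 are given. The smallest p this design allows is 0.00216. The pairs were chosen with earlier results of these data known, and several hold RRM2. Their p-values therefore add no support to the changes of the single genes, and the ratios serve as a description. The ratio of RRM2 to RRM1, the small to the large subunit, was lowest at 0.663, with a median of 1.31 and a highest value of 1.67 in parental cells. In PGCC it was 2.21, 3.48 and 3.79. The groups did not overlap, and the ratio was 2.62-fold higher in PGCC (exact permutation p = 0.00216, adjusted p = 0.00259). In both populations runs 4 and 5 gave the lowest ratios, and without them the log2 difference was 1.27 in place of 1.39.

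The ratio of RRM2 to RRM2B rose further, from 0.487 to 2.55 in parental cells (median 1.85) to between 9.94 and 17.0 in PGCC (median 14.8). Per kilobase, RRM2B was thus the more abundant small-subunit mRNA in runs 4 and 5 of parental cells, with ratios of 0.487 and 0.863. RRM2 mRNA was the more abundant in all other parental libraries without LCL521 and all PGCC libraries. The ratio was 9.61-fold higher in PGCC (exact permutation p = 0.00216, adjusted p = 0.00259), and its log2 difference was 3.27, or 2.87 without runs 4 and 5.

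The ratio of TK1 to DCK compares the kinase for thymidine with that for deoxycytidine. It ranged from 0.571 to 1.505 in parental cells (median 1.17) and from 7.81 to 10.6 in PGCC (median 9.52), a 9.03-fold difference (exact permutation p = 0.00216, adjusted p = 0.00259). The ratio of DUT to TYMS, the step that provides dUMP to the step that uses it, ranged from 0.738 to 1.62 in parental cells (median 0.972) and from 0.478 to 0.570 in PGCC (median 0.519). It was 2.01-fold lower in PGCC, at the same p and adjusted p in the exact permutation test, although both genes rose. The ratio of SAMHD1 to RRM2, breakdown to synthesis, went from a median of 0.514 to a median of 0.0911 and was 5.57-fold lower in PGCC, again at the same p in the exact permutation test. None of these groups overlapped.

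Under LCL521 the log2 differences of the 5 ratios were 1.61 for RRM2 to RRM1, 3.51 for RRM2 to RRM2B, 3.34 for TK1 to DCK, -1.17 for DUT to TYMS and -2.59 for SAMHD1 to RRM2. All 5 again reached the smallest p of the exact permutation test, 0.00216 (adjusted p = 0.00259).

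**Figure D4:**
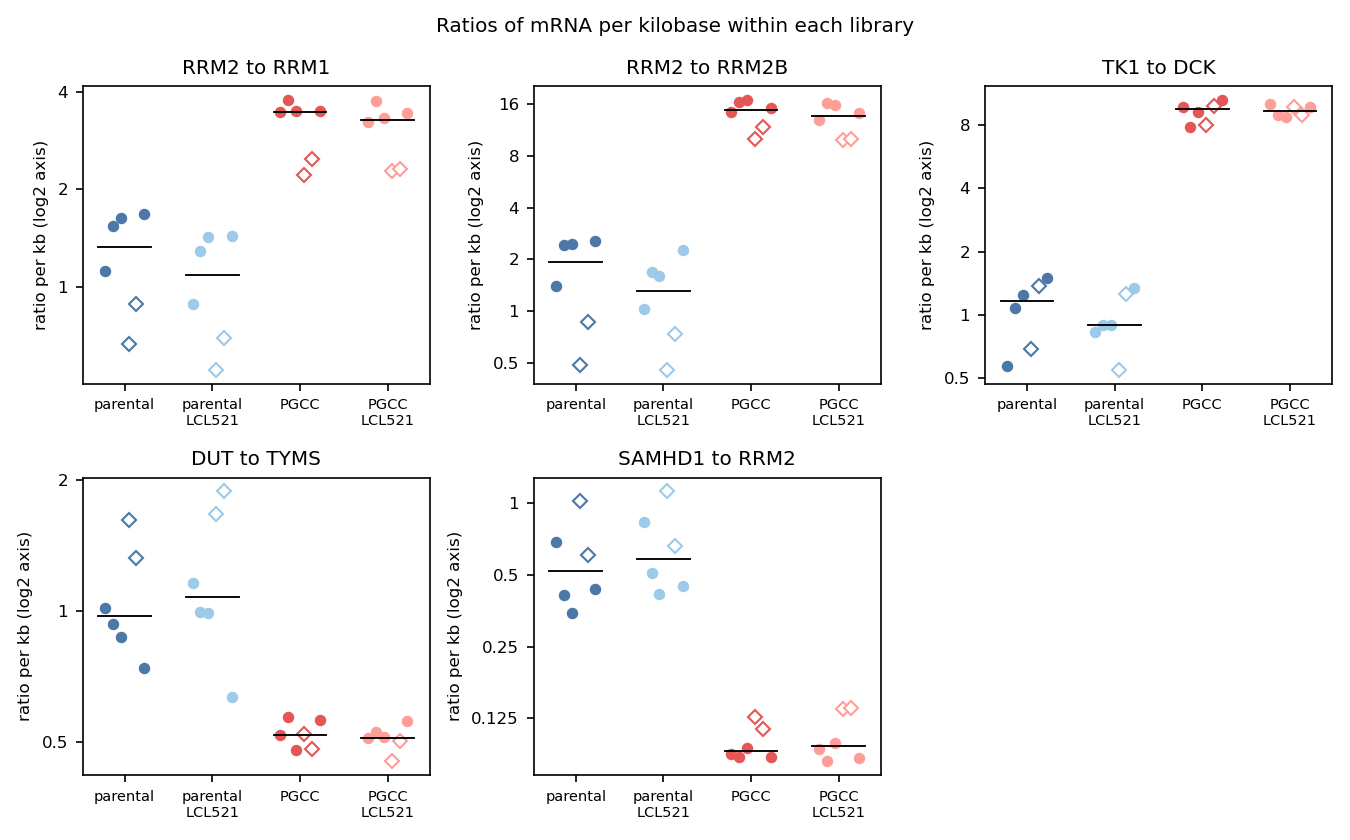
Ratios per kilobase between partner genes in each library (log2 axes), with the median of 6 libraries (bar) and runs 4 and 5 as open diamonds. The ratios RRM2 to RRM1, RRM2 to RRM2B and TK1 to DCK are higher and DUT to TYMS and SAMHD1 to RRM2 lower in every PGCC library than in any parental library of the same treatment.

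The enzymes also differed in how much they varied between runs. In parental cells RRM2, TK1 and TYMS had coefficients of variation of 45.8%, 36.0% and 34.3%, against 17.8%, 7.07% and 6.11% in PGCC. RRM1 varied by 20.1% in parental cells and 5.95% in PGCC, and SAMHD1 by 19.0% and 6.58%. DCTD was the opposite, at 2.54% and 4.25%. RRM2 was the only one of the 9 whose levels in runs 4 and 5 were below those of the other 4 runs in both PGCC conditions, at 291 and 364 CPM against 434 to 480 CPM without LCL521 and at 286 and 311 CPM against 434 to 451 CPM with it.

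The mitotic markers rose in PGCC and the S phase factors did so in part, where 23.1% of all genes tested were higher and 24.3% lower. All 12 mitotic genes (such as MKI67, CCNB1, CDK1 and TOP2A) rose in PGCC, with a median log2 fold change of 2.16, and their sum went from between 238 and 690 CPM in parental cells to between 1643 and 2105 CPM in PGCC. Of 12 S phase factors, 7 rose, 2 fell (CCNE1 and MCM6) and 3 did not pass (PCNA, CDT1 and CCNE2), with a median log2 fold change of 0.76 and sums from 594 to 1212 CPM in parental cells and from 1437 to 1713 CPM in PGCC. The part of the markers in the changes of the 9 enzymes was not tested.

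For each enzyme the most similar profiles were found by the root mean square difference of log2 CPM over the 24 libraries, each gene centred, among 10656 genes. RRM2 was closest to BRIP1 (0.25 against an own spread of 1.57), SCARA3 and OAS3, and TK1 to MYBL2 (0.17 against 1.60), ARHGDIB and CDC45. RRM1 was closest to TRIP13 (0.14), PINK1 and PRIM2, and TYMS to DSN1 (0.13), FANCA and CDK2. DTYMK was closest to HYLS1 (0.09), PSME2 and LIN9, SAMHD1 to MTHFD1 (0.08), CAMK2G and TMPO, and DUT to CMC2 (0.11), NENF and FKBP3. DCK was closest to NAE1, MKKS and GNPDA1, and DCTD to DAD1, RAC1 and PSMB7. Among the 9 themselves, the smallest differences were DCK and DCTD at 0.17, DUT and DTYMK at 0.19 and DTYMK and SAMHD1 at 0.21. This measure is small for any 2 genes that vary little, and DCK and DCTD had own spreads of only 0.18 and 0.10. By rank among the compared genes, DCTD was 299th from DCK and DCK 1519th from DCTD. RRM2 and TK1 differed by 0.39 against own spreads of 1.57 and 1.60, and TK1 was 11th from RRM2 and RRM2 16th from TK1. These values describe likeness over libraries that share the population split and the runs.

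The wider nucleotide pathway did not move as one. Of 58 further genes of nucleotide synthesis, salvage, breakdown, folate supply and transport, 55 were tested (not CMPK2, NME2 and TYMP), and 14 were higher, 17 lower and 24 not past the threshold in PGCC, where 23.1% of all genes were higher and 24.3% lower. Their median log2 fold change was -0.02, against -0.03 for all genes. Under LCL521 14 were higher and 15 lower, where 25.0% of all genes were higher and 23.9% lower.

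In new pyrimidine synthesis, which feeds the reductase, 2 of 6 genes passed and both fell. DHODH, the mitochondrial step of the route, went from 34.6 ± 4.37 to 14.6 ± 2.41 CPM (SD, n = 6), or by -1.24 on the log2 scale (adjusted p = 2.51e-06, edgeR), and CMPK1 changed by -0.20. In the folate cycle, 2 of 4 genes rose and 1 fell. The cytosolic serine hydroxymethyltransferase SHMT1 went from 24.3 ± 6.05 to 63.7 ± 7.36 CPM (SD, n = 6; log2 fold change 1.40, adjusted p = 7.42e-06, edgeR), and MTHFD1, which interconverts one-carbon folates, changed by 0.45. The mitochondrial SHMT2 changed by -0.87.

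Among the other salvage kinases, 1 of 6 rose and 2 fell. The mitochondrial thymidine kinase TK2 went from 18.3 ± 3.47 to 11.8 ± 2.27 CPM (SD, n = 6; log2 fold change -0.62, adjusted p = 0.00399, edgeR), opposite in sign to TK1. UCK2 changed by -0.60 and DGUOK by 0.27. Of 5 mono- and diphosphate kinases tested, AK1 (0.58) and GUK1 (0.42) rose and NME4 (-0.85) and NME1 (-0.58) fell. NME1 is closely similar to its neighbour NME2, so its count is uncertain.

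Breakdown and pool cleaning had the most rises outside the 9, with 7 of 14 tested higher and 3 lower. CDA, which deaminates cytidine and deoxycytidine, went from 4.90 ± 1.69 to 22.1 ± 2.08 CPM (SD, n = 6; log2 fold change 2.18, adjusted p = 1.18e-06, edgeR), and NUDT1, which removes oxidized purine nucleotides, changed by 1.43. NT5C, a nucleotidase that acts on deoxynucleotides, changed by -1.23 and ITPA, which removes deaminated purine nucleotides, by -0.50. In purine synthesis and salvage, 2 of 14 rose (PRPS2, 0.31, and PAICS, 0.25) and 4 fell, most of all IMPDH2 (-0.64) and APRT (-0.62). Of 5 transporters, SLC29A2 (-0.99) and SLC25A36 (-0.65) fell and none rose.

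**Figure D5:**
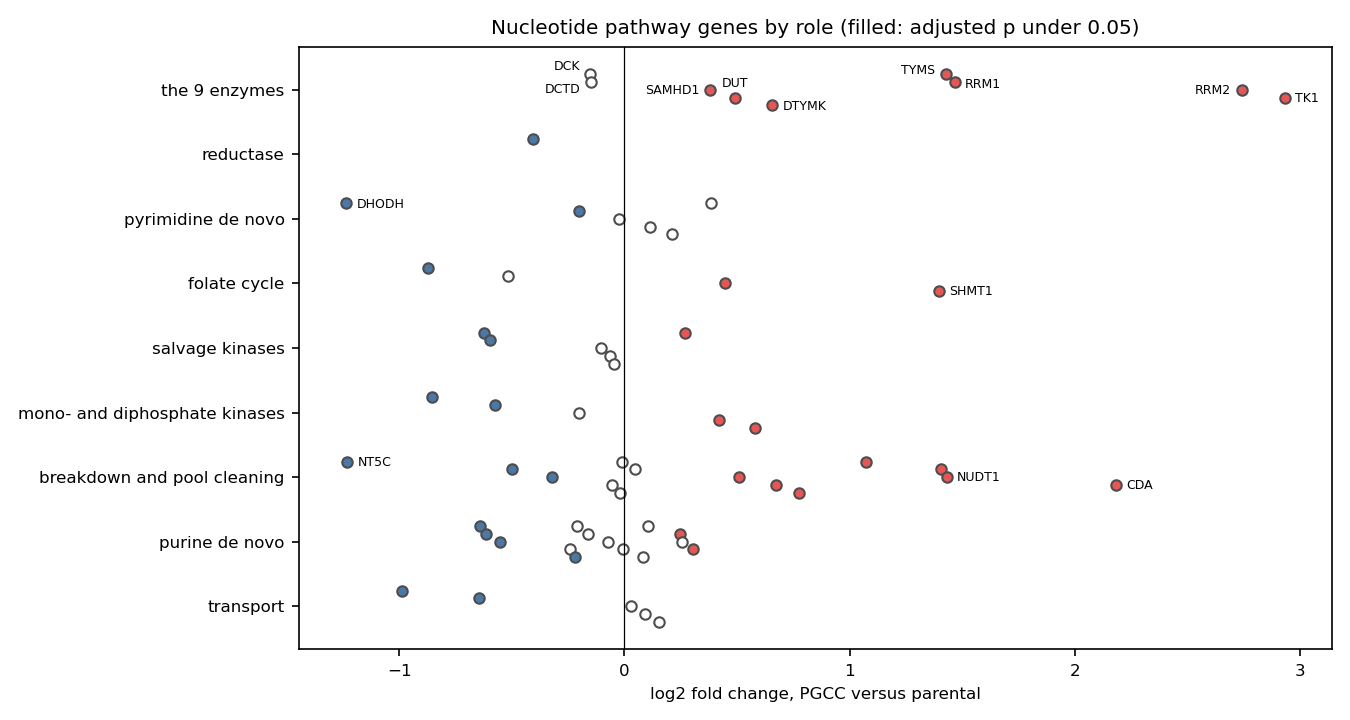
Log2 fold changes in PGCC against parental cells (horizontal axis) of the 9 enzymes and of 55 other nucleotide pathway genes, by role. Filled points passed an adjusted p of 0.05 (red higher, blue lower), and of the other genes 14 were higher and 17 lower.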

How the data were processed

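RNA of 24 PPC1 libraries was sequenced. Per the labels and the study's methods, paired-end reads were aligned with STAR and counted per gene with HTSeq. The submitters' processing notes also name CASAVA, DESeq2 and the build hg19. The authors deposited raw read counts per gene, not normalized, with gene lengths and coordinates. The annotation release and the strand setting are not given in the sources used here. The 9 genes, the pathway and marker lists and the tests were chosen with earlier results of these data known.

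Counts were filtered with filterByExpr (minimum count 10, minimum total 15), scaled by TMM and tested with edgeR 4.0.16 (quasi-likelihood, R 4.3.3) on the 12 libraries of each comparison, or all 24 for the interaction. Benjamini-Hochberg adjustment ran over all genes tested (threshold 0.05). The scripts were tested on simulated data. CPM are TMM-scaled, RPKM also divide by gene length, log2 CPM carry a prior count of 2, and intervals are at 95%. Named genes were all 9 enzymes, the ratio partner RRM2B, the 2 largest rises and 2 largest falls past the threshold in each pathway role, the 3 nearest profiles of each enzyme (mean log2 CPM of 2 or more), and genes whose span overlaps an enzyme. ENOSF1 and MOB1B came from the last. Genes of the marker lists were named as examples, and those that fell or missed the threshold after their values were seen. A few genes of the lists and 1 of the ratios are not reported here, and the counts and rankings leave them out.

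The run number pairs the libraries, since all 4 conditions were harvested together in each run. Same-numbered libraries deviated together from their condition means (correlation across genes, which are not independent, of at least 0.171 in every pair). The study's methods name no block, so it was an alternative. Libraries of a condition differed by more than sampling noise (chi-square per degree of freedom 4.69 to 110 in 60 pairs). Alternatives were DESeq2 1.42.0, upper quartile or RLE factors, unscaled library totals, no filter, at least 10 counts in every library, 1 fit of all libraries, the block, and leaving out single runs or runs 4 and 5.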

Additional observations from a re-analysis of the deposited data

Results flagged for a closer look

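Of 56 checks of a group of 6 libraries for a value far from the others, 1 stood out, where chance alone gives about 1 in 20. TK1 in PGCC with LCL521 was lowest in replicate 3, at 103 CPM against 117 to 120 CPM in the other 5 libraries. The gap to the nearest library took up 0.8345 of the whole range on the log2 CPM scale, above the critical value of Dixon's test at the 95% level. Run 3 also held the lowest TK1 of PGCC without LCL521, 104 CPM. Both values were far above the highest parental library, 19.4 CPM.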

How the results depend on the processing

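The count of enzymes called in PGCC lay between 6 and 8 of 9 over the alternatives without LCL521 and was 7 in all of them with it, and none was called for LCL521 or its interaction under any. SAMHD1 was the one lost, without replicate 3 or 5, where 5542 of 13828 and 6129 of 13810 genes were called. Over all genes, the alternatives without LCL521 called from 5529 of 13891 (without replicate 1) to 8881 of 13809 (block, without replicates 4 and 5). Without the filter 7675 of 29759 were called. With LCL521 the counts went from 5734 of 13823 (without replicate 3) to 8035 of 29659 (no filter). DCTD passed at a lower level under DESeq2 (adjusted p = 0.0145), upper quartile factors (0.0439), 1 fit of all libraries (0.0232, edgeR) and the replicate block (0.0482, edgeR). DCK passed at a lower level (-0.26, adjusted p = 0.0248, edgeR) with the block and without replicates 4 and 5. The block changed no other call of an enzyme. Scaling by library totals turned the split of all genes called from 3186 higher and 3355 lower to 3820 and 2521, and under LCL521 from 3454 and 3304 to 3819 and 2825. The 5 ratios stayed past the threshold in the same direction under every alternative run, with an adjusted p of 0.0374 in the exact sign-flip test paired by run. The cause was not tested.

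The values that changed sign were small and called in no setting. Among the interaction terms, that of RRM1 went from -0.0257 to 0.0895 without replicates 4 and 5. In parental cells with LCL521, RRM1 was 0.0219 with library totals, 0.00118 with at least 10 counts in every library, 0.00760 with the block and -0.0460 to 0.0516 with 1 replicate left out. DUT was 0.00327 with library totals and -0.0604 to 0.0283 with 1 replicate left out. In PGCC with LCL521, leaving out replicates 4 and 5 without and with the block gave DCK 0.0239 and 0.0278, SAMHD1 -0.0346 and -0.0350, and DCTD 0.0225 and 0.0222. Leaving out 1 replicate gave -0.0327 to 0.0339 for DCK, -0.00984 to 0.0334 for SAMHD1 and -0.0278 to 0.00994 for DCTD. For PGCC with LCL521 against parental cells with LCL521, DCK ranged from -0.137 to 0.0128 when 1 replicate was left out. In parental cells, where RRM2, TK1 and TYMS vary between runs, an effect of LCL521 within the printed intervals was not detectable without pairing.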
